A study of Homo sapiens with 24 samples.

Results

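WSB1, WSB2, ASB1, ASB2, ASB3, ASB6, ASB7, ASB8, ASB13 and SPSB1 are genes for SOCS-box proteins, the substrate-recognising parts of ubiquitin ligases. These 10 genes, of the 23106 gene symbols in the count files, were taken by symbol, and the family was chosen by the measured counts of WSB1, which differed with each single stimulus, and of ASB2, which differed with ITE. The remaining 8 were added for comparison. Those earlier values came from these libraries, so the single-stimulus changes of the members are given as descriptions with no p-value, and nothing is read from the calls counted there.

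RNA-seq was performed on RCC4+VHL cells, a clear cell renal carcinoma line in which wild-type VHL had been restored by stable transfection, so that HIF is again degraded when oxygen is present. The line is a transfected clone, and its VHL counts can include transcripts of the transgene. Cells were kept for 6 h at ambient oxygen (normoxia, 21%) or at 0.5% oxygen (hypoxia), with 100 nM ITE, an indole ligand of the aryl hydrocarbon receptor (AHR), or with 0.1% DMSO as vehicle. Each of the 4 combinations of oxygen and treatment had 6 replicates, 24 libraries in all, and the same cells were used throughout.

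In a SOCS-box ligase the SOCS box holds elongin B and elongin C and, with them, a cullin (usually CUL5) and a RING protein, while a separate domain binds the substrate. WSB proteins bind through WD40 repeats, ASB proteins through ankyrin repeats and SPSB proteins through a SPRY domain. VHL is built on a similar plan with CUL2, and its best-known substrates are the HIF-α subunits. HIF-α and AHR each pair with HIF-1β/ARNT to bind DNA, so the 2 stimuli act through complexes with a common subunit.

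The start regions of WSB1 and ASB2, the genes that led to the choice of this family, are shown because HIF complexes bind around ACGTG and AHR complexes around GCGTG. Windows from 250 bases before to 50 bases after each RefSeq start (GRCh38.p14) were searched for both motifs on both strands. Below, the 250 bases before the start of the WSB1 window (chr17:27293864-27294113, plus strand) and of the first of the 2 ASB2 windows (chr14:93976571-93976820, minus strand) run 5′ to 3′ on the strand of the gene, with the ACGTG matches in capitals.
WSB1: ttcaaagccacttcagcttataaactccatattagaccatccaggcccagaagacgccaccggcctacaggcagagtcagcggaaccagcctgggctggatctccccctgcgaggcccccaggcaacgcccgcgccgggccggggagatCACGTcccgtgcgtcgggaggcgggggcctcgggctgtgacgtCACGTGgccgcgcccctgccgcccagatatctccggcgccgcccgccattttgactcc
ASB2: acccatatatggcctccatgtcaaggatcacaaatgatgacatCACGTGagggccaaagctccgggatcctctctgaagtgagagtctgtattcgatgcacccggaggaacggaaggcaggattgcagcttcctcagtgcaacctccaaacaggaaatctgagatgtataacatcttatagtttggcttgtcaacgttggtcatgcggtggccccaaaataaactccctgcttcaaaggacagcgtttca
The WSB1 window held 3 ACGTG matches. On the strand of the gene 1 lay at bases -57 to -53 from the start, and on the opposite strand there was a match at -58 to -54, which overlaps it, and another at -101 to -97. The ASB2 window held 2 overlapping matches, at -207 to -203 and -206 to -202. Neither window held GCGTG, and the other ASB2 window held neither motif.

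RefSeq windows were found for 9 of the 10 members, 11 windows in all, and SPSB1 had no entry. ACGTG was present for 4 members (WSB1, ASB2, ASB3 and ASB13) and GCGTG for 3 (ASB1, ASB7 and ASB8), with no member holding both. Among all 35116 windows of 300 bases, 21.4% held ACGTG, 36.5% held GCGTG and 9.51% held both. A match describes letters in a window and was not related to binding here.

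Library totals ranged from 770094 counts (hypoxia + DMSO replicate 2) to 93851342, and all 10 members were among the 11735 genes that passed the filter on low counts. The conditions were visible in reference genes. In hypoxia with DMSO the HIF targets NDRG1, DDIT4, PFKFB4 and VEGFA rose by 3.25, 3.53, 3.41 and 0.87 on the log2 scale. In normoxia with ITE the AHR targets CYP1B1, TIPARP and ALDH1A3 rose by 2.51, 1.35 and 1.33 (edgeR, highest adjusted p of all these = 4.77e-05). CA9, also listed as a HIF target, did not pass the filter. Its 13 counts all lay in 1 library, normoxia + DMSO replicate 4, with 0 in every other library of either oxygen level. All 7 renal epithelial carcinoma markers passed the filter. None of the 4 leukocyte or 3 endothelial markers passed it, with summed levels up to 0.743 and 3.31 CPM (counts relative to the TMM-adjusted library total). Of 4 fibroblast markers 1 passed, and their summed level was 46.3 CPM in normoxia + DMSO replicate 4 against at most 3.23 CPM in any other library. The same library held 22 of the 22 counts of PECAM1, an endothelial gene, and 81 of the 81 counts of DCN, a fibroblast gene, and the WSB1 and ASB2 changes against normoxia + DMSO are also given without it.

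Hypoxia + ITE replicate 6 stood apart with the base composition of the genes. Its deviation from the median of the other 5 libraries of its group had a median of -0.76 on the log2 scale over 4167 genes with a canonical transcript under 45% GC and of 1.03 over 1529 genes over 60% GC. GC content was available for 10431 of the 11735 genes tested (88.9%). Among the members, ASB7 (43.1% GC) was at 2.66 CPM in this library and at 9.35 to 18.6 CPM in the other 5. WSB1 (41.6% GC) was at 55.3 CPM against 76.6 to 111.4 CPM. By contrast, ASB13 (56.2% GC) was at 81.1 CPM against 26.7 to 41.9 CPM. Across the 10 members, which share these libraries, the Spearman correlation of GC content with this deviation was 0.66.

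**Figure D1:**
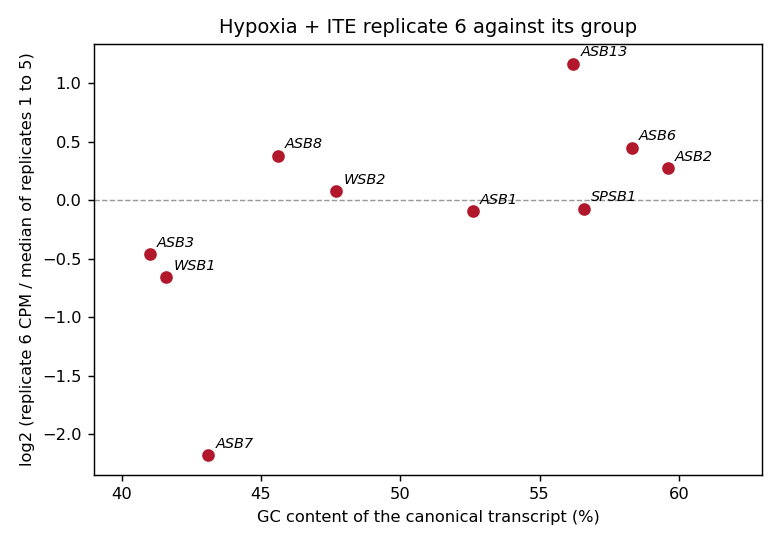
Deviation of hypoxia + ITE replicate 6 from its group, for the 10 members. The x axis is the GC content of the canonical transcript in percent, and the y axis the log2 ratio of its CPM to the median of replicates 1 to 5. ASB7 lies at -2.18, WSB1 at -0.66 and ASB13 at 1.17.

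Per kilobase of canonical transcript, WSB2 was the most abundant member in untreated cells, at 19.99 ± 1.43 CPM per kb (SD, n = 6, normoxia + DMSO). ASB13 followed at 13.4 ± 0.81 and ASB8 at 12.8 ± 0.55 CPM per kb, and these neighbours did not differ beyond their spread. WSB1 was at 10.7 ± 0.48, ASB6 at 8.62 ± 0.96, ASB1 at 6.30 ± 0.50 and ASB3 at 5.84 ± 0.62 CPM per kb, and again ASB1 and ASB3 lay within their spread. The lowest were ASB2 at 3.53 ± 1.56, ASB7 at 2.83 ± 0.38 and SPSB1 at 2.10 ± 0.47 CPM per kb, and the SD of ASB2 spanned the ASB7 and SPSB1 means. ASB2 was the most variable member in untreated cells, from 5.20 to 15.3 CPM. These orders use transcript lengths from the annotation, which can differ from the isoforms made in these cells.

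**Figure D2:**
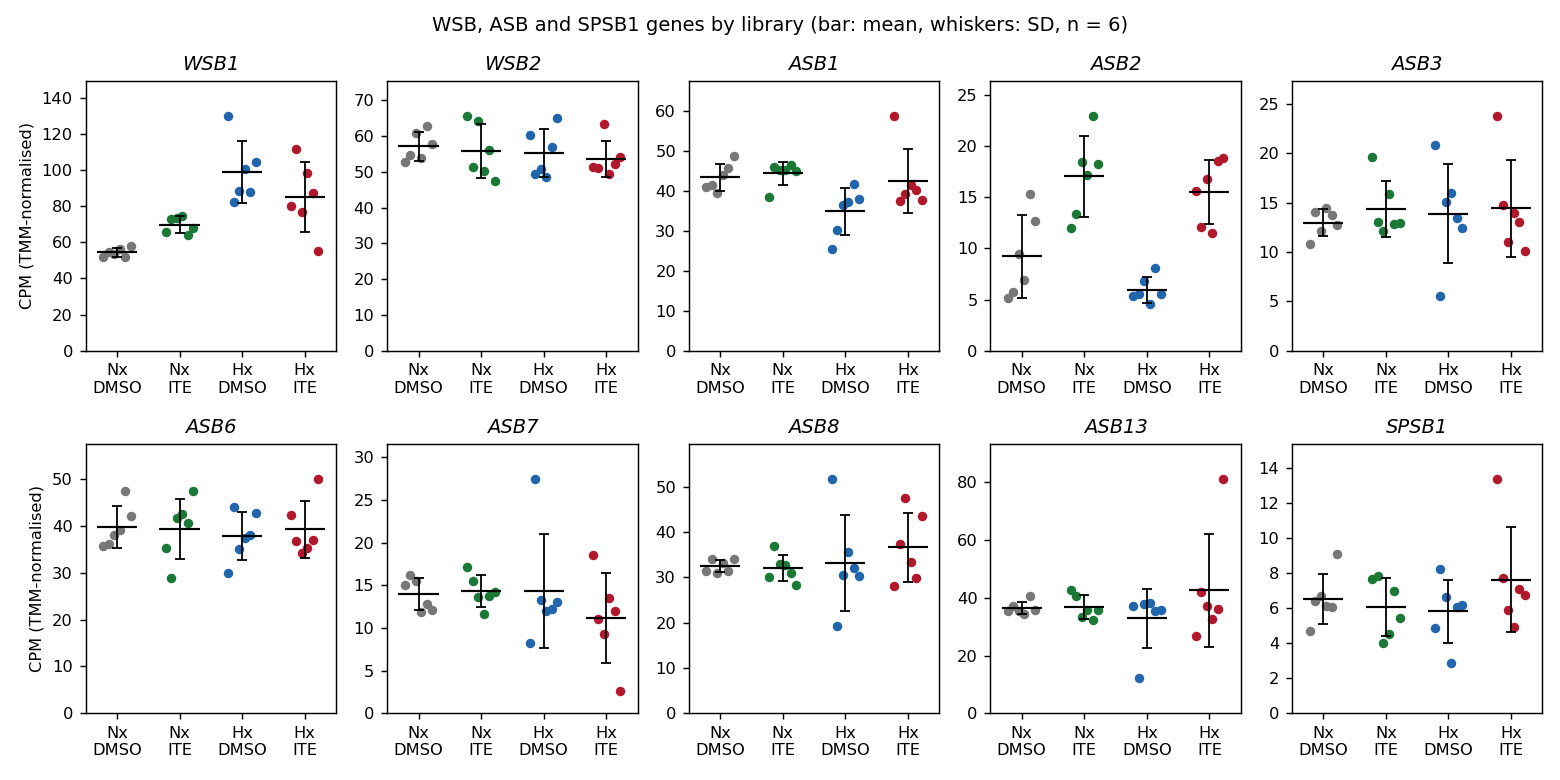
CPM (TMM-normalised, y axes from 0) of the 10 members in the 24 libraries, by group (Nx normoxia, Hx hypoxia). Points are libraries in the order of replicate number, horizontal bars are means and whiskers SD (n = 6). WSB1 is lowest in normoxia + DMSO (51.9 to 57.9 CPM), and ASB2 is higher with ITE at either oxygen level.

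ASB2 is an ankyrin-repeat subunit known to direct filamins to degradation. On GRCh37 it lies at chr14:94400512-94443085 on the minus strand. Its transcript was more abundant with ITE in hypoxia. This comparison shares no library with ITE in normoxia, but the choice of ASB2 for a response to ITE named no oxygen level and was made with results of these data known, so the test is not independent of the choice. In hypoxia + DMSO the libraries ranged from 4.57 to 8.11 CPM (median 5.52), and in hypoxia + ITE from 11.5 to 18.8 CPM (median 16.2). The groups did not overlap, as was the case for 0.153% of all genes in this direction. ASB2 was 2.48-fold higher, a log2 fold change of 1.31 (SE 0.25, 95% interval 0.80 to 1.82, higher in 6 of 6 same-numbered replicates), with an edgeR adjusted p of 0.0319. ASB2 was the 1 member of 10 called higher in this comparison, in which 0.0597% of all genes were called higher.

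The size of the ASB2 change held in all 10 alternatives (log2 1.23 to 1.39), but its call did not. The adjusted p ranged from 0.000392 to 0.397 and was under 0.05 in 5 of 10. Without hypoxia + ITE replicate 6 the ASB2 log2 fold change was 1.23 with an adjusted p of 0.0700, and without hypoxia + DMSO replicate 2, in which ASB2 had 4 counts, it was 1.30 with 0.0586. With only the libraries of both compared groups in the fit it was 1.33 with 0.0725, and DESeq2 gave 1.33 with 0.000626.

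In normoxia, where the rule had used the values, ASB2 ranged from 5.20 to 15.3 CPM (median 8.19) with DMSO and from 11.95 to 22.9 CPM (median 17.8) with ITE. These ranges overlapped, although ITE was higher in 6 of 6 same-numbered replicates. The log2 fold change was 0.92 (SE 0.23), and it was 0.85 without normoxia + DMSO replicate 4. Replicate 5 held the highest ASB2 level in normoxia + DMSO (15.3 CPM), in normoxia + ITE (22.9 CPM) and in hypoxia + DMSO (8.11 CPM).

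Oxygen was described for ASB2 in DMSO and tested in ITE. With DMSO, ASB2 was lower in hypoxia by a log2 value of -0.55 (SE 0.25; -0.62 without normoxia + DMSO replicate 4), and the 6 libraries of hypoxia + DMSO lay inside or under the range of normoxia + DMSO. With ITE the log2 fold change of hypoxia was -0.16 (SE 0.23, 95% interval -0.62 to 0.31, edgeR adjusted p = 0.743). The normoxia + ITE libraries of this test also took part in choosing ASB2 for a high value, which by itself lowers the difference. With both stimuli against neither, which shares normoxia + DMSO with the comparisons used by the rule, ASB2 differed by 0.76 (SE 0.23), or by 0.69 without normoxia + DMSO replicate 4. In order of level, hypoxia + DMSO was lowest and overlapped normoxia + DMSO, while hypoxia + ITE and normoxia + ITE were higher and overlapped each other.

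**Figure D3:**
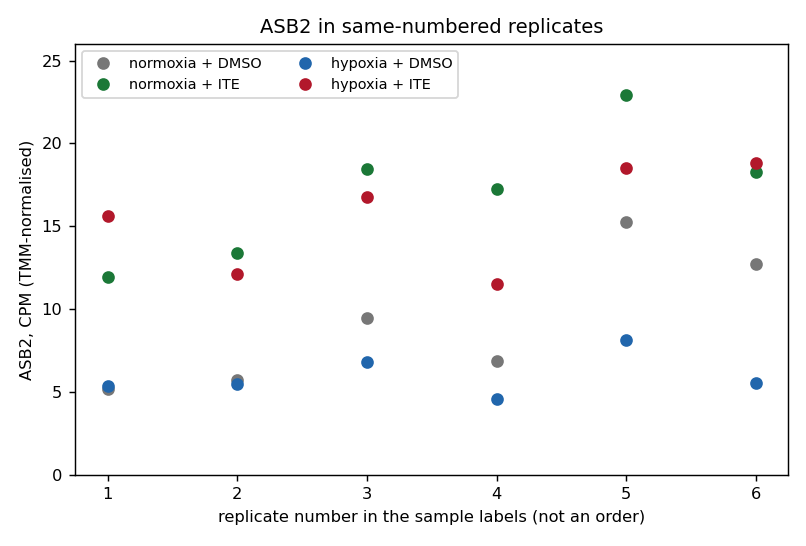
ASB2 in CPM (TMM-normalised, y axis from 0) against the replicate number in the sample labels, which is a name and not an order, with 1 point per library. In every replicate number the ITE point lies above the DMSO point of the same oxygen level, and hypoxia + DMSO stays at or under 8.11 CPM.

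WSB1, a WD40-repeat subunit whose reported substrates include the kinase HIPK2, the iodothyronine deiodinase DIO2 and VHL itself, had been chosen for its changes with each single stimulus. It lies on GRCh37 at chr17:25621102-25642952 on the plus strand. Normoxia + DMSO ranged from 51.9 to 57.9 CPM (median 54.2), normoxia + ITE from 63.8 to 74.8 CPM (median 70.3) and hypoxia + DMSO from 82.5 to 129.7 CPM (median 94.6). No library of these 3 groups overlapped another group. Hypoxia + ITE was the widest group, from 55.3 to 111.4 CPM (median 83.8), and its lowest value was that of replicate 6.

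As a description, the log2 fold change of WSB1 was 0.87 (SE 0.13) for hypoxia with DMSO and 0.36 (SE 0.13) for ITE in normoxia. Without normoxia + DMSO replicate 4 these values were 0.88 and 0.37. WSB1 was the 1 member called higher in hypoxia with DMSO, where 1.16% of all genes were, and the 1 member whose groups did not overlap, where 1.8% of genes were wholly higher and 0.937% wholly lower. For ITE in normoxia 0 members were called, against 0.0511% of all genes called higher, and WSB1 was again the 1 member without overlap, against 0.477%. Nothing is read from these counts, since the rule used both comparisons. With both stimuli against neither, WSB1 differed by 0.65 (SE 0.13), or by 0.66 without normoxia + DMSO replicate 4. That comparison shares normoxia + DMSO, where the rule had used the low WSB1 values, so nothing is read from its count either: WSB1 was the 1 member of 10 called, beside 1.79% of all genes called higher, 0.528% called lower and 2.32% in all, and 0 members were wholly higher than the control group, beside 1.26% of all genes.

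ITE added to hypoxia did not raise WSB1 detectably. The tested log2 fold change was -0.22 (SE 0.13, 95% interval -0.49 to 0.05, edgeR adjusted p = 0.577), and WSB1 was higher with ITE in 1 of 6 same-numbered replicates. The hypoxia + DMSO libraries of this comparison also took part in choosing WSB1 for a high value. Without hypoxia + ITE replicate 6 the value was -0.12.

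Hypoxia in the presence of ITE gave a log2 fold change of 0.29 for WSB1 (SE 0.13, 95% interval 0.03 to 0.56, higher in 5 of 6 same-numbered replicates), which did not pass the edgeR test at an adjusted p of 0.201. The normoxia + ITE libraries also took part in choosing WSB1 for a high value, which by itself lowers this difference. In this comparison 0 of 10 members were called, against 1.89% of all genes called higher, 0.46% called lower and 2.35% in all, and 1 member, WSB1, had an unadjusted p under 0.05. No member was free of overlap between the groups, beside 1.21% of genes wholly higher and 0.92% wholly lower. A single library decided this call: without hypoxia + ITE replicate 6 the WSB1 log2 fold change was 0.39 with an adjusted p of 0.0383. The part of base composition in this difference was not tested.

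The interaction, the change with both stimuli minus the sum of the single changes on the log2 scale, was -0.58 for WSB1 (SE 0.18, 95% interval -0.95 to -0.20, unadjusted p = 0.00392 in edgeR, adjusted p = 0.915). Selecting WSB1 for a rise in both single comparisons lowers this value by itself, so nothing is read from its interval or p-values. Without normoxia + DMSO replicate 4 the interaction of WSB1 was -0.59 and that of ASB2 0.47. For ASB2 the interaction was 0.39 (SE 0.33, 95% interval -0.29 to 1.08, adjusted p = 0.915). Among all genes 0 were called by edgeR and 0 by DESeq2, with 290 higher and 84 lower at an unadjusted edgeR p under 0.05.

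**Figure D4:**
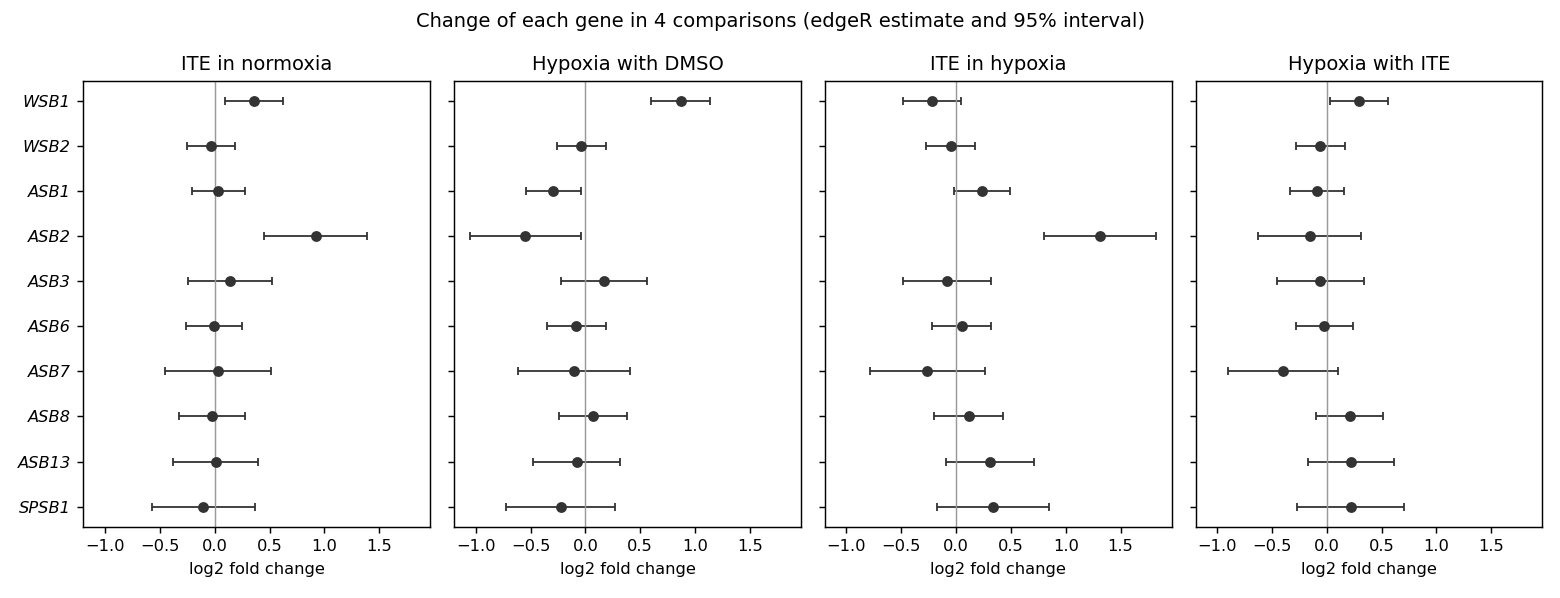
Log2 fold changes of the 10 members (points) with 95% intervals (bars) from the edgeR model in 4 comparisons. The first 2 panels show comparisons used to choose the members and are descriptions. ASB2 lies at 0.92 and 1.31 for ITE in normoxia and hypoxia, and WSB1 at 0.87 and 0.29 for hypoxia with DMSO and with ITE.

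WSB2 is the paralogue of WSB1, and the count ratio of the pair within a library does not depend on library size. WSB2 itself had medians between 51.8 and 56.2 CPM in the 4 groups, and its log2 fold changes in the 4 single-factor comparisons lay between -0.06 and -0.03. The WSB1 to WSB2 ratio ranged from 0.827 to 1.05 in normoxia + DMSO (median 0.994), from 1.01 to 1.49 in normoxia + ITE (median 1.27) and from 1.54 to 2.15 in hypoxia + DMSO (median 1.70). The hypoxia + DMSO libraries all lay above both normoxia groups. In hypoxia + ITE the ratio ranged from 1.02, in replicate 6, to 2.18 (median 1.62). In that library WSB1 (41.6% GC) deviated from the median of replicates 1 to 5 by -0.66 on the log2 scale and WSB2 (47.7% GC) by 0.08. The part of base composition in the ratio was not tested.

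The log2 ratio was 0.31 higher in hypoxia + ITE than in normoxia + ITE (SE 0.20, higher in 5 of 6 same-numbered replicates), with a two-sided exact permutation p of 0.143 and 0.286 after adjustment over 2 comparisons. Between hypoxia + ITE and hypoxia + DMSO it differed by -0.20 (SE 0.19, exact permutation p = 0.310, adjusted p = 0.310). The normoxia + ITE and hypoxia + DMSO libraries also took part in choosing WSB1 for high values, which by itself lowers both differences. These tests are therefore not independent of the choice. The smallest p that 6 against 6 libraries can give is 0.00216. As a description, the log2 ratio differed by 0.90 (SE 0.10) for hypoxia with DMSO and by 0.40 (SE 0.11) for ITE in normoxia.

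**Figure D5:**
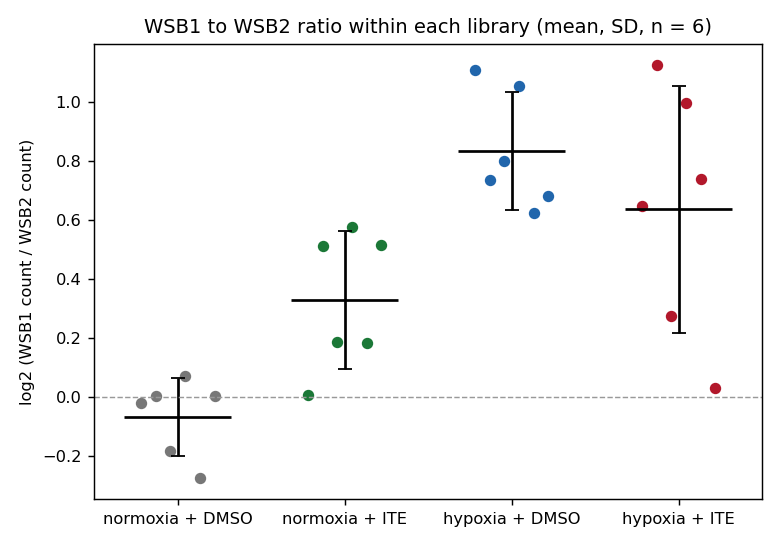
Log2 ratio of WSB1 to WSB2 counts in each of the 24 libraries by group (points), with the mean (horizontal bar) and SD (whiskers, n = 6), the dashed line marking equal counts. Normoxia + DMSO lies around 0, hypoxia + DMSO from 0.63 to 1.11, and the lowest hypoxia + ITE point, at 0.03, is replicate 6.

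Among the remaining ASB genes and SPSB1, no member passed the test in either tested comparison. ASB1, an ankyrin-repeat subunit, had a median of 42.7 CPM in normoxia + DMSO and of 36.8 CPM in hypoxia + DMSO, lower in 6 of 6 same-numbered replicates, with overlapping ranges (39.6 to 48.8 and 25.5 to 41.8 CPM). Its described log2 fold change for hypoxia with DMSO was -0.29 (SE 0.12), and its tested value for ITE in hypoxia was 0.24 (SE 0.12, edgeR adjusted p = 0.647).

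ASB7 targets PSRC1 (DDA3), a spindle protein, and its group medians lay between 11.5 and 14.0 CPM. Its log2 fold change was -0.40 (SE 0.24, adjusted p = 0.367) for hypoxia with ITE and -0.26 (SE 0.26, adjusted p = 0.740) for ITE in hypoxia, and hypoxia + ITE replicate 6 was the lowest library of its group. Without that library the ASB7 values were -0.23 and -0.08. ASB13, reported to target the transcription factor SNAI2, had group medians of 35.5 to 36.7 CPM. Its changes were 0.22 (SE 0.19, adjusted p = 0.534) and 0.31 (SE 0.20, adjusted p = 0.599) in the same 2 comparisons, and without that library they were -0.04 and 0.03.

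SPSB1, which recognises the inducible nitric oxide synthase NOS2 and the TGF-β receptor TGFBR2, had group medians of 6.11 to 6.94 CPM. Its tested log2 fold changes were 0.34 (SE 0.25, 95% interval -0.17 to 0.85) for ITE in hypoxia and 0.22 (SE 0.24, 95% interval -0.27 to 0.70) for hypoxia with ITE. ASB8, with group medians of 31.3 to 35.4 CPM, differed by 0.11 (SE 0.15) and 0.21 (SE 0.15). For ASB3, reported to target the TNF receptor TNFRSF1B, the values were -0.08 (SE 0.20) and -0.06 (SE 0.19), with group medians of 13.0 to 14.3 CPM. In the annotation used here for transcript lengths, ASB3 overlaps the gene GPR75 by 7056 bases. The effect of this overlap on the ASB3 counts was not tested. ASB6, reported to bind the adaptor SH2B2, differed by 0.05 (SE 0.13) and -0.02 (SE 0.13) around medians of 36.8 to 41.1 CPM. Without hypoxia + ITE replicate 6 the values for ITE in hypoxia and hypoxia with ITE were 0.06 and 0.17 for ASB8, -0.04 and -0.0086 for ASB3, and -0.03 and -0.11 for ASB6.

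The median log2 fold change of the 10 members was 0.08 for ITE in hypoxia (6 positive), beside 0.02 over all genes tested. For hypoxia with ITE it was -0.04 (4 positive), beside 0.02 over all genes. For hypoxia with DMSO, used by the rule, it was -0.08 (3 positive).

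Of 29 other genes with a SOCS box in the files, 16 passed the filter. Those that did not included ASB11, ASB15, ASB17 and SPSB4, listed at 0 in all 24 libraries. By edgeR SPSB3 was the 1 gene of 16 called in any comparison, beside 1.89% of all genes called higher in the same comparison. It rose in hypoxia with ITE, from 25.0 to 31.0 CPM (median 27.1) in normoxia + ITE to 30.5 to 60.6 CPM (median 39.5) in hypoxia + ITE. The SPSB3 log2 fold change was 0.58 (SE 0.16, edgeR adjusted p = 0.0409), and without hypoxia + ITE replicate 6 it was 0.45 with an adjusted p of 0.0819. The call also ended with no filter (adjusted p = 0.0526) and with the compared groups only, without the replicate block (0.167) or with it (0.288). Leaving out 3 libraries together ended it too (0.0792). DESeq2 called RAB40B (0.74, adjusted p = 0.0149) beside SPSB3, where it called 509 of all 11252 genes higher. For hypoxia with DMSO the SPSB3 value was 0.34 (SE 0.16, edgeR adjusted p = 0.481).

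The ligase core was represented by 16 genes (elongins, cullins, RING proteins and the NEDD8 pathway that activates cullins), of which all passed the filter. By edgeR with all libraries 0 were called in any comparison. DESeq2 called 1 (TCEB2) higher in hypoxia with ITE, beside 509 of all 11252 genes it tested there. With both stimuli it called 4 higher (TCEB2, NEDD8, RBX1 and VHL), beside 498 of 11024 genes. Without hypoxia + ITE replicate 6 edgeR called UBE2F higher in hypoxia with DMSO (0.35, adjusted p = 0.0444), beside 239 of 11808 genes. Their median log2 fold change was 0.12 for hypoxia with DMSO, 0.00 for hypoxia with ITE, 0.08 for ITE in normoxia and -0.09 for ITE in hypoxia. TCEB2, which encodes elongin B and is named after its values were seen, reached 904.1 CPM in hypoxia + ITE replicate 6 and lay between 119.8 and 270 CPM in the other 5 libraries of that group. Its log2 fold change for hypoxia with ITE was 1.17 (edgeR adjusted p = 0.0571, DESeq2 adjusted p = 0.0349), and 0.39 (adjusted p = 0.310) without that library. VHL likewise stood at 700.8 CPM there and between 163.9 and 292.9 CPM in the other 5.

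Of 14 genes whose proteins are reported substrates of these ligases, 9 passed the filter. By edgeR PSRC1 was the 1 gene called in any comparison, and it was lower in hypoxia. PSRC1 ranged from 21.3 to 29.2 CPM in normoxia + DMSO (median 24.7), from 18.9 to 26.9 CPM in normoxia + ITE (median 23.9), from 12.2 to 21.99 CPM in hypoxia + DMSO (median 16.2) and from 9.66 to 17.8 CPM in hypoxia + ITE (median 15.1). It fell by 0.65 on the log2 scale for hypoxia with ITE (SE 0.15, edgeR adjusted p = 0.0161), beside 0.46% of all genes called lower. The groups did not overlap there, beside 0.92% of genes wholly lower. For hypoxia with DMSO PSRC1 fell by 0.60 (SE 0.15, edgeR adjusted p = 0.0456), where 0.136% of all genes were called lower. With both stimuli against neither it fell by 0.78 (SE 0.15, edgeR adjusted p = 0.00238), without overlap. In that comparison 0.528% of all genes were called lower and 0.801% were wholly lower. The call with DMSO ended without normoxia + DMSO replicate 4 (-0.60, adjusted p = 0.0894) and with no filter (0.057). The call for hypoxia with ITE ended with the compared groups only, either without the replicate block (adjusted p = 0.109) or with it (0.211). With the replicate block over all libraries that call held (edgeR adjusted p = 0.0202). The call with both stimuli ended with the replicate block and the compared groups only (0.161). Transcript counts do not measure the protein that a ligase would degrade.

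By Pearson correlation of log2 CPM over the 24 libraries, the genes most like WSB1 were STK17A (0.908), KRCC1 (0.904) and C4orf3 (0.877). For ASB2 they were GPR15 (0.889), TPRA1 (0.812) and SLC3A2 (0.802). These are descriptions over libraries that share the 4 conditions and the base composition of hypoxia + ITE replicate 6.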

How the data were processed

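RNA-seq libraries of RCC4+VHL cells were made with a directional, paired-end kit. The authors trimmed adaptors (Trim Galore 0.3.3), aligned to GRCh37 (HISAT2, version 2.05 in the submitters' processing notes), removed fragments that did not map uniquely (Picard 2.0.1) and counted fragments per gene (HTSeq 0.5.4p3); the strand setting is not given in the sources used here. The deposited values are raw counts, 1 per gene symbol and library, without normalisation. Groups and replicate numbers came from the sample titles.

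Of 23106 symbols, 11735 passed filterByExpr (minimum count 10). Counts were normalised by TMM and fitted with 1 mean per group over all 24 libraries by the edgeR 4.0.16 quasi-likelihood test (R 4.3.3), with Benjamini-Hochberg adjustment over all 11735 genes and a threshold of 0.05. The biological coefficient of variation was 22%. DESeq2 1.42.0 was an alternative, beside RLE normalisation, no filter, the compared groups alone, replicate blocks and left-out libraries. The scripts were tested on simulated data. Library totals of 770094 to 93851342 set the precision: 3 counts were 3.90 CPM in the shallowest library, and such floors cover counting error only.

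The members and gene lists were chosen with earlier results of these data known. The genes named are every member, list genes past the threshold (up to 5 per list and comparison), the reference targets and the 3 genes most like WSB1 and ASB2. The study describes the replicates as independent.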

Additional observations from a re-analysis of the deposited data

Results flagged for a closer look

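Dixon's gap test was applied to 44 groups of 6 libraries (11 quantities: the 10 members and the WSB1 to WSB2 ratio). In these, 8 values stood farther from the rest of their group than its 95% limit. By chance about 1 in 20 groups, or 2.2 of the 44, would hold such a value. Hypoxia + ITE replicate 1, a shallow library of 1357702 counts, held the highest ASB1 (58.7 CPM), ASB3 (23.8 CPM) and SPSB1 (13.4 CPM) of its group. The shallowest library, hypoxia + DMSO replicate 2, held the highest ASB7 (27.5 CPM) and the lowest ASB13 (12.4 CPM). In hypoxia + ITE replicate 6, which stood apart by GC content, ASB13 was at 81.1 CPM. The other values were WSB2 at 63.3 CPM in hypoxia + ITE replicate 3 and ASB1 at 38.6 CPM, the lowest of its group, in normoxia + ITE replicate 1. The part of depth or base composition in these values was not tested.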

How the results depend on the processing

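Of 280 values of single members under the alternatives, 264 kept their direction and their side of the threshold. For ITE in hypoxia, 1 member (ASB2) was called, and 0 with the compared groups only, with the replicate block and compared groups only, without hypoxia + ITE replicate 6, without hypoxia + DMSO replicate 2 and with 3 libraries left out together. Among all genes 7 were called higher in the main fit, and 1, 1, 6, 4 and 6 in these alternatives in the same order. For hypoxia with ITE, 0 were called, and 1 (WSB1) without hypoxia + ITE replicate 6 and with 3 libraries left out. Among all 11735 genes 222 were called higher and 54 lower in the main fit. Without that library 192 and 63 of 11808 were, and with 3 left out 190 and 70 of 11768. For ITE in normoxia, 0 were called, 1 with the replicate block, 1 with the compared groups only and 2 with both. The rule used this comparison, so nothing is read from these counts. Among all 11735 genes 6 were called higher and 0 lower in the main fit, and 13 and 0 with the block. With the compared groups only 27 and 3 of 11511 were, and with both 160 and 95 of 11511. For both stimuli, 1 was called, 2 with DESeq2, 2 with the replicate block and 0 with the compared groups only, with or without the block. Among all 11735 genes 210 were called higher and 62 lower in the main fit, and 186 and 78 with the block. DESeq2 called 498 and 149 of 11024. With the compared groups only 81 and 7 of 12113 were called, and 57 and 1 with the block added. The cause of these differences between fits was not tested. With the block, the ASB2 log2 fold change in hypoxia was 1.39 (adjusted p = 0.000392), or 1.39 (adjusted p = 0.397) with the compared groups only.

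Over the fits that left out 1 library, ASB6 ranged from -0.032 to 0.081 for ITE in hypoxia and from -0.028 to 0.086 for the interaction, and ASB13 from -0.037 to 0.22 for hypoxia with ITE, each lowest and reversed without hypoxia + ITE replicate 6. With 3 libraries left out (that library, hypoxia + DMSO replicate 2 and normoxia + DMSO replicate 4, chosen after seeing the data), ASB6 reversed to -0.0072, ASB7 to 0.038 and ASB13 to -0.048 for ITE in hypoxia, ASB13 to -0.038 for hypoxia with ITE, and ASB7 to 0.059 and ASB13 to -0.034 for the interaction. Leaving out normoxia + DMSO replicate 4 alone was also chosen after seeing the data. The WSB1 to WSB2 log2 ratio kept its sign and side under all alternatives, and in the exact sign-flip test by replicate block it was 0.31 (adjusted p = 0.25) and -0.20 (adjusted p = 0.25).

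Same-numbered replicates correlated above 0.1 in 5 of 6 pairs between normoxia + DMSO and normoxia + ITE, and in 2 of 6 between hypoxia + DMSO and hypoxia + ITE. In the former 5 of 6, and in the latter 2 of 6, libraries correlated best with their own number. Between the remaining groups 3 or 4 of 6 did. The numbers may therefore mark shared handling, which the labels do not state. The main fit left the libraries unpaired, and fits with replicate blocks are given as alternatives. Depth limits ASB2 most in hypoxia + DMSO replicate 2, where it had 4 counts.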
